A study of Mus musculus with 10 samples.

Results

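Expression of 9 genes that make, use or carry glutamate and glutamine was followed in the motor cortex of wild-type mice and of mice labelled as lacking membralin in astrocytes. The genes were taken by symbol, as 9 of the 35275 gene rows of the deposited table, and all 9 were present once. They are the enzymes Glul, Glud1, Got1, Got2, Gpt2 and Bcat1 and the sodium-coupled glutamine carriers Slc38a1, Slc38a2 and Slc38a3. RNA came from mice of strain C57BL/6 aged 22 postnatal days, with 5 biological repeats of wild type (WT1 to WT5) and 5 of a conditional knockout of membralin in astrocytes (KO1 to KO5). Tmem259 encodes membralin, which sits in the membrane of the endoplasmic reticulum. The labels name neither the Cre line or promoter used for the deletion nor whether a repeat is 1 animal or a pool. The study asked how loss of membralin in astrocytes bears on the handling of glutamate.

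In cortex, astrocytes take up the glutamate released at synapses and glutamine synthetase, the product of Glul, joins it to ammonia to form glutamine. Astrocytes export glutamine through Slc38a3, and neurons take it up through carriers that include Slc38a1 and Slc38a2 and turn it back into glutamate and GABA. Glutamate also enters and leaves the tricarboxylic acid cycle through glutamate dehydrogenase (Glud1) and through aminotransferases, of which Got1 and Bcat1 work in the cytosol and Got2 and Gpt2 in mitochondria.

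Libraries held between 22793058 and 28827871 fragments assigned to genes. The values cover whole tissue, so fewer cells of a type and less RNA per cell cannot be told apart. The targeted gene Tmem259 measured between 16.9 and 26.2 FPKM (fragments per kilobase of gene, scaled to the library total) in KO1, KO2, KO4 and KO5, between 23.8 and 32.4 FPKM in WT, and the library labelled KO3 had the top value of the 10, at 34.4 FPKM. Without that library Tmem259 passed lower (log2 fold change -0.42, limma adjusted p = 0.0279), and with it Tmem259 did not (-0.27, adjusted p = 0.275). Leaving that library out removes the top Tmem259 value, so the fit without it is no independent test of the targeted gene. Because the targeted gene goes against that label, results on the 9 genes and on the lists are also given without it where that changes a call. Summed markers of astrocytes (12 genes) ran from 1375 to 1626 FPKM in WT and from 1320 to 1683 FPKM in KO. Singly, Aqp4 and Mlc1 passed higher (log2 fold changes 0.67 and 0.26, limma adjusted p = 0.0290 and 0.0454) and none passed lower. Without the library labelled KO3, 4 of the 12 passed higher. Slc1a2, an astrocyte glutamate transporter, lay below every WT library in 4 KO libraries (log2 fold change -0.20, limma adjusted p = 0.132). Markers of GABAergic neurons (8 genes, Gad1 and Gad2 among them) summed to between 263 and 349 FPKM in WT and between 376 and 547 FPKM in KO. Singly, 5 of the 8 passed higher and 1, Pvalb, lower (log2 fold change -0.66, limma adjusted p = 0.0338). Olfactory bulb markers (7 genes, of which S100a5 was at 0 in WT1, WT2 and WT5) summed to between 4.13 and 30.9 FPKM in WT and between 11.6 and 75.7 FPKM in KO, in tissue labelled motor cortex. Markers of reactive astrocytes (6 genes) summed to between 96.2 and 135 FPKM in WT, to 127 FPKM in the library labelled KO3 and to between 501 and 804 FPKM in the other KO libraries. Oligodendrocyte markers (6 genes) summed to between 1647 and 2042 FPKM in WT and between 1263 and 1853 FPKM in KO.

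Bcat1 and Slc38a2 were the 2 of the 9 genes that rose in KO cortex, and none of the 9 fell. Bcat1, which passes the amino group of branched-chain amino acids to oxoglutarate to form glutamate, was 1.29-fold higher. Slc38a2, a glutamine carrier whose gene is induced when amino acids are scarce, was 1.22-fold higher. Glul, the most abundant of the 9, was at 0.855 of its WT level and did not pass the test with all libraries. Over all 14497 genes tested 13.3% passed, 9.77% higher in KO and 3.51% lower, by limma with a Benjamini-Hochberg adjusted p under 0.05. WT and KO libraries did not overlap in 2 of the 9 genes and in 7.55% of all genes, and 4 of the 9 beside 32.8% of all genes had an unadjusted p under 0.05. Without the library labelled KO3, 3 of the 9 passed (2 higher, and Glul lower) beside 26% of all genes. Without WT1, KO2 or KO4 none of the 9 passed by limma (3, 3 and 2 unadjusted), and 2 genes in all did. The median log2 fold change was 0.15 over the 9 genes and 0.08 over all genes tested. With median-of-ratios scaling these medians were 0.06 and 0.00, the counts over all genes went from 1417 higher and 509 lower to 625 higher and 901 lower, and 1 of the 9 genes, Bcat1, rose. The marker sums of GABAergic neurons in all KO libraries, and of reactive astrocytes, oligodendrocytes and olfactory bulb in 4 KO libraries each, lay outside the WT range given above. For the olfactory bulb these were KO1 to KO4, the library labelled KO3 included. With the olfactory bulb markers as a covariate (their mean log2 level) limma called 0 of the 9 genes and 0 of all 14497 genes tested (2 and 3060 unadjusted). The part of the other marker sums was not tested.

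**Figure D1:**
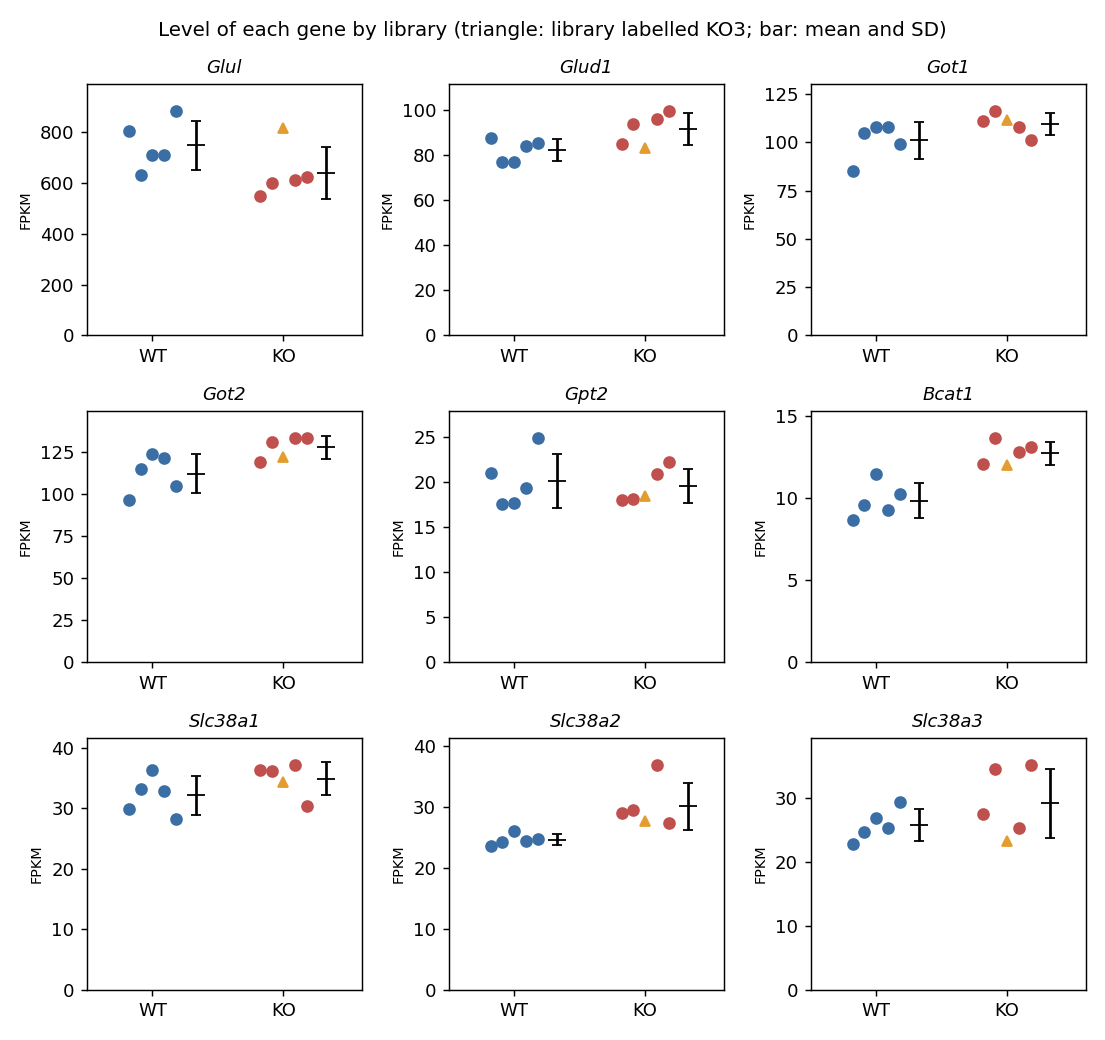
FPKM of each of the 9 genes (y axis, from 0) in WT and KO libraries (x axis). Each point is 1 library, the triangle is the library labelled KO3, and the bar is the group mean with its SD (n = 5). Groups do not overlap for Bcat1 and Slc38a2, and in Glul the triangle lies at 817 FPKM while the other KO libraries lie at or below 623 FPKM.

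Levels per length spanned a wide range. In WT cortex the order was Glul (748 FPKM), Got2 (112 FPKM), Got1 (101 FPKM), Glud1 (82.1 FPKM), Slc38a1 (32.2 FPKM), Slc38a3 (25.8 FPKM), Slc38a2 (24.6 FPKM), Gpt2 (20.1 FPKM) and Bcat1 (9.85 FPKM), each a mean over 5 libraries. Glul lay above Got2 in all 10 libraries and made up between 60.9% and 68.5% of the summed FPKM of the 9 genes in WT and between 55.5% and 65.4% in KO. The WT ranges overlapped between Got2 and Got1, Got1 and Glud1, Slc38a1 and Slc38a3, Slc38a3 and Slc38a2, and Slc38a2 and Gpt2, so those neighbours were not set apart by their spread. In KO the ranges of Got2 and Got1, of Got1 and Glud1 and of Slc38a2 and Gpt2 no longer overlapped, and Slc38a2 had the higher mean of the pair with Slc38a3 (30.1 and 29.2 FPKM), with ranges that overlapped. Depth did not limit these values: the smallest number of fragments behind any of them was 1469, for Gpt2.

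Glul (ENSMUSG00000026473, chromosome 1, 153899944 to 153909723, plus strand, mm10) encodes glutamine synthetase. It measured 802, 632, 708, 711 and 885 FPKM in WT1 to WT5 and 547, 599, 817, 611 and 623 FPKM in KO1 to KO5. Of the KO libraries 4 lay below every WT library, and the library labelled KO3 lay above 4 of the 5 WT libraries. The group means were 748 ± 97.5 FPKM in WT against 640 ± 104 FPKM in KO (± SD, 5 libraries per group). The log2 fold change was -0.23 with a 95% interval from -0.49 to 0.03 (SE 0.12, limma adjusted p = 0.198; exact permutation p = 0.127, two-sided). With the library labelled KO3 left out KO averaged 595 ± 33.4 FPKM (± SD, 4 libraries), and Glul fell by 0.32 on the log2 scale (interval from -0.54 to -0.10, limma adjusted p = 0.0338; exact permutation p = 0.0159). In that fit 6.36% of genes passed lower. That fit drops the top KO value of Glul and is no independent test. The oligodendrocyte marker sum, from cells that also express Glul, was likewise below every WT library in KO1, KO2, KO4 and KO5 and not in the library labelled KO3, and its part in the Glul values was not tested.

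Set against Glud1 and Aldh1l1 of the same libraries, Glul kept that arrangement, and against Slc1a3 it did so in part. The ratio of Glul to Glud1 was 9.18, 8.22, 9.20, 8.46 and 10.4 in WT1 to WT5 and 6.46, 6.40, 9.82, 6.37 and 6.25 in KO1 to KO5. The ratio was thus below every WT library in 4 KO libraries, whose mean was 6.37 ± 0.09 (SD, n = 4), and within the WT range in the library labelled KO3. Glud1 itself averaged 82.1 ± 4.87 FPKM in WT against 91.4 ± 7.14 FPKM in KO (± SD, 5 libraries per group), so this ratio carries the differences of both genes. Against Aldh1l1, an enzyme used as a marker of astrocytes, the ratio was 31.9 ± 1.69 in WT and 26.1 ± 3.74 in KO (± SD, 5 libraries per group), and 24.6 ± 1.70 without the library labelled KO3 (SD, n = 4). Aldh1l1 itself measured 23.4 ± 2.81 FPKM in WT against 24.6 ± 2.53 FPKM in KO (± SD, 5 libraries per group). Against Slc1a3, an astrocyte glutamate transporter with 137 ± 6.56 FPKM in WT libraries and 136 ± 5.95 FPKM in KO libraries, the Glul ratio was 5.46 ± 0.55 in WT and 4.71 ± 0.88 in KO (± SD, 5 libraries per group), with 3 KO libraries below every WT library and the library labelled KO3 above every WT library. These ratios were chosen with the Glul values known and carry no test.

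**Figure D2:**
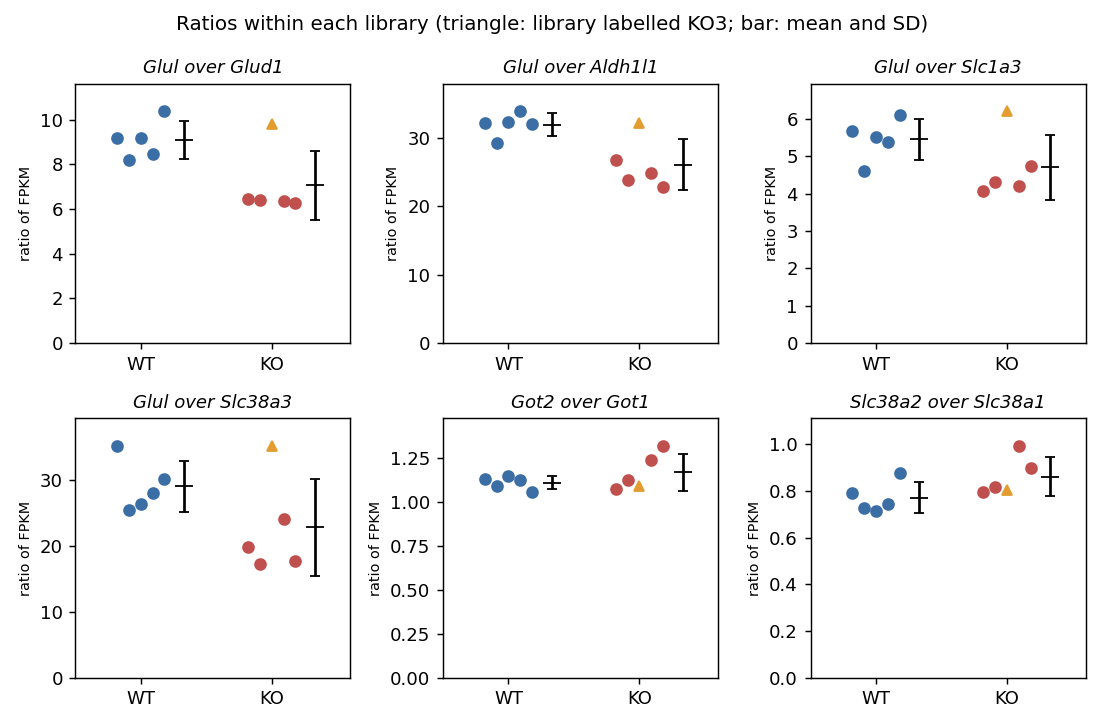
Ratio of the FPKM of 2 genes within each library (y axis, from 0) for WT and KO (x axis). Points are libraries, the triangle is the library labelled KO3 and the bar is the mean with its SD (n = 5). In the panel of Glul over Glud1, 4 KO libraries lie between 6.25 and 6.46 and the triangle at 9.82.

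Glud1 (ENSMUSG00000021794, chromosome 14, 34310727 to 34345144, plus strand, mm10) interconverts glutamate and oxoglutarate in mitochondria. It measured 87.4, 76.9, 77.0, 84.1 and 85.3 FPKM in WT1 to WT5 and 84.7, 93.6, 83.3, 95.9 and 99.7 FPKM in KO1 to KO5. KO2, KO4 and KO5 lay above every WT library, and KO1 and the library labelled KO3 lay within the WT range. The means were 82.1 ± 4.87 and 91.4 ± 7.14 FPKM (± SD, 5 libraries per group), and the difference did not pass over all genes (log2 fold change 0.15, interval from 0.01 to 0.29, limma adjusted p = 0.124; exact permutation p = 0.0714). Its log2 fold change was 0.18 when the library labelled KO3 was dropped (limma adjusted p = 0.0513). With median-of-ratios scaling it was 0.06.

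The aspartate aminotransferases Got1 and Got2 exchange amino groups between glutamate and aspartate and are parts of the malate-aspartate shuttle. Cytosolic Got1 (ENSMUSG00000025190, chromosome 19, 43499752 to 43524605, minus strand, mm10) was at 85.1, 105, 108, 108 and 99.0 FPKM in WT1 to WT5 and 111, 116, 112, 108 and 101 FPKM in KO1 to KO5. Mitochondrial Got2 (ENSMUSG00000031672, chromosome 8, 95864134 to 95888547, minus strand, mm10) was at 96.4, 115, 124, 121 and 105 FPKM in WT1 to WT5 and 119, 131, 122, 133 and 133 FPKM in KO1 to KO5. In both genes WT1 was the lowest library of the 10, and the groups overlapped. Got1 averaged 101 ± 9.59 FPKM in WT against 110 ± 5.72 FPKM in KO (± SD, 5 libraries per group; log2 fold change 0.12, interval from -0.03 to 0.27, limma adjusted p = 0.254; exact permutation p = 0.135). Got2 averaged 112 ± 11.5 FPKM in WT against 128 ± 6.71 FPKM in KO (± SD, 5 libraries per group; log2 fold change 0.19, interval from 0.03 to 0.35, limma adjusted p = 0.0946; exact permutation p = 0.0397, unadjusted). The ratio of Got2 to Got1 was between 1.06 and 1.15 in WT and between 1.07 and 1.32 in KO, with KO4 (1.24) and KO5 (1.32) above every WT library. The other 3 KO libraries kept the ratio within the WT range.

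Gpt2 (ENSMUSG00000031700, chromosome 8, 85492576 to 85527560, plus strand, mm10), a mitochondrial alanine aminotransferase, was the member with the smallest difference. It measured 21.04, 17.6, 17.7, 19.3 and 24.9 FPKM in WT1 to WT5 and 18.02, 18.2, 18.5, 20.9 and 22.2 FPKM in KO1 to KO5, so every KO library lay within the WT range. The means were 20.1 ± 3.03 and 19.6 ± 1.89 FPKM (± SD, 5 libraries per group; log2 fold change -0.03, interval from -0.24 to 0.17, limma adjusted p = 0.838; exact permutation p = 0.770). Its sign turned with the setting. Gpt, the cytosolic enzyme that catalyses the same reaction, fell: it averaged 8.53 ± 1.22 FPKM in WT against 6.19 ± 1.25 FPKM in KO (± SD, 5 libraries per group; log2 fold change -0.41, limma adjusted p = 0.0390). The library labelled KO3 had 8.07 FPKM, inside the WT range of 7.35 to 10.6 FPKM, and Gpt lay between 5.17 and 6.85 FPKM in the other KO libraries. The difference between the changes of Gpt and Gpt2 was not tested.

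Bcat1 (ENSMUSG00000030268, chromosome 6, 144993835 to 145076184, minus strand, mm10), the cytosolic branched-chain aminotransferase, measured 8.66, 9.57, 11.5, 9.31 and 10.3 FPKM in WT1 to WT5. Its values were 12.1, 13.7, 12.05, 12.8 and 13.1 FPKM in KO1 to KO5. Every KO library, the library labelled KO3 included, lay above every WT library, which 5.7% of all genes tested did in that direction. WT3, with the highest WT value, and the library labelled KO3, with the lowest KO value, were 11.5 and 12.05 FPKM. The means were 9.85 ± 1.07 and 12.8 ± 0.70 FPKM (± SD, 5 libraries per group; log2 fold change 0.35, SE 0.07, interval from 0.19 to 0.50, limma adjusted p = 0.0186; exact permutation p = 0.00794, the smallest that 5 against 5 libraries allow). The adjusted p was 0.0525 without WT1, 0.0516 without KO2 and 0.0558 without KO4, with log2 fold changes of 0.30, 0.32 and 0.34. With the olfactory bulb markers as a covariate its log2 fold change came to 0.28 (limma adjusted p = 0.137), and in the 2 WT and 4 KO libraries with at least 1 FPKM of the olfactory bulb marker Omp it was 0.27 (adjusted p = 0.356). The mitochondrial enzyme Bcat2 averaged 3.43 FPKM in WT against 3.20 FPKM in KO (log2 fold change -0.07, limma adjusted p = 0.534).

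Slc38a2 (ENSMUSG00000022462, chromosome 15, 96687394 to 96699698, minus strand, mm10) was at 23.7, 24.2, 26.1, 24.5 and 24.8 FPKM in WT1 to WT5 and 29.1, 29.6, 27.7, 36.9 and 27.4 FPKM in KO1 to KO5. All KO libraries lay above all WT libraries, and KO4 stood above the other KO libraries. The means were 24.6 ± 0.91 and 30.1 ± 3.91 FPKM (± SD, 5 libraries per group; log2 fold change 0.27, SE 0.07, interval from 0.11 to 0.43, limma adjusted p = 0.0359; exact permutation p = 0.00794). The call ended when any of 7 of the 10 libraries was dropped. Without KO4 the log2 fold change was 0.20 (adjusted p = 0.0613), and the adjusted p was 0.0851, 0.0656, 0.0611 and 0.0624 without WT1, WT2, WT4 and WT5, and 0.0673 and 0.0717 without KO1 and KO2. With median-of-ratios scaling the log2 fold change was 0.18 (adjusted p = 0.0978), with quantile normalization 0.23 (adjusted p = 0.0705) and with the olfactory bulb covariate 0.18 (adjusted p = 0.296). With each library left out in turn the exact permutation p of the difference in FPKM, unadjusted, was between 0.00794 and 0.0238. The groups do not overlap and so stay apart whichever library is dropped. That p therefore stays near its smallest value and says nothing on how stable the limma call is.

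Slc38a1 and Slc38a2 lie on the same strand of chromosome 15, 44480 bases apart. Slc38a1 (ENSMUSG00000023169, chromosome 15, 96571418 to 96642913, minus strand, mm10), a carrier of neurons that include GABAergic cells, measured 29.8, 33.2, 36.5, 32.9 and 28.3 FPKM in WT1 to WT5. Its values were 36.5, 36.2, 34.4, 37.2 and 30.5 FPKM in KO1 to KO5, with KO4 above every WT library and KO1 level with WT3 at the printed precision. The means were 32.2 ± 3.16 and 35.0 ± 2.70 FPKM (± SD, 5 libraries per group; log2 fold change 0.12, interval from -0.04 to 0.28, limma adjusted p = 0.286; exact permutation p = 0.151). The groups overlapped, and with the olfactory bulb covariate the sign turned (log2 fold change -0.05). The ratio of Slc38a2 to Slc38a1 was 0.77 ± 0.07 in WT and 0.86 ± 0.08 in KO (± SD, 5 libraries per group), with KO4 and KO5 above every WT library.

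Slc38a3 (ENSMUSG00000010064, chromosome 9, 107650639 to 107668968, minus strand, mm10), the astrocyte carrier through which glutamine leaves the cell, measured 22.8, 24.7, 26.9, 25.3 and 29.3 FPKM in WT1 to WT5. Its values were 27.5, 34.7, 23.2, 25.3 and 35.2 FPKM in KO1 to KO5, the widest KO spread of the 9 genes at 18.7% of the mean. KO2 and KO5 lay above every WT library, and the library labelled KO3 was the lowest of the KO group. The means were 25.8 ± 2.46 and 29.2 ± 5.46 FPKM (± SD, 5 libraries per group; log2 fold change 0.16, interval from -0.09 to 0.40, limma adjusted p = 0.349; exact permutation p = 0.254). Dropping the library labelled KO3 gave a log2 fold change of 0.23 (limma adjusted p = 0.117). The ratio of Glul to Slc38a3, which are both expressed by astrocytes, was 29.1 ± 3.85 in WT and 22.8 ± 7.40 in KO (± SD, 5 libraries per group), and 19.7 ± 3.12 without the library labelled KO3 (SD, n = 4).

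**Figure D3:**
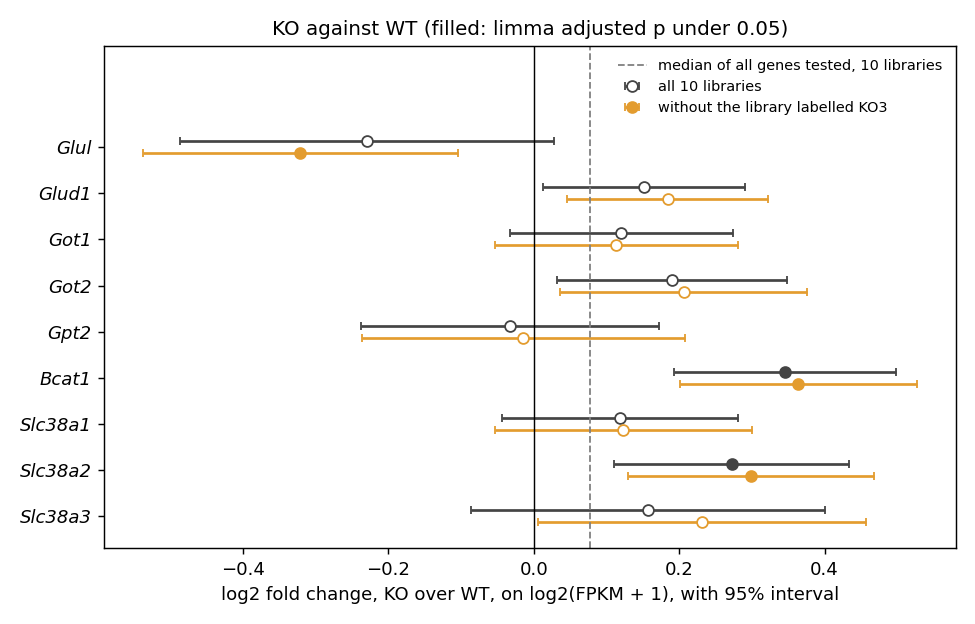
Log2 fold change of KO over WT (x axis, on log2(FPKM + 1)) with its 95% interval for each gene (y axis), from all 10 libraries and without the library labelled KO3. Filled points passed limma's test, and the dashed line is the median of all genes tested (0.08). Bcat1 and Slc38a2 are filled in both fits, and Glul (-0.32) is filled only without the library labelled KO3.

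The start regions of 7 of the 9 genes were found in RefSeq (GRCm38.p6), as 8 windows from 250 bases before to 50 bases after an annotated start. Those of the genes that rose and of Glul are shown, with that of Got1. Among the 8 windows, that of Got1 alone held the letters of the amino acid response element that the factor ATF4 binds with C/EBP partners. Sequence outside these windows was not searched, so a gene without a match here may hold one elsewhere. Capitals mark TGATGNAA or CCAAT on either strand, and no 2 matches of the different motifs overlapped. Each sequence reads 5′ to 3′ on the strand of its gene.
Bcat1, upstream start, chr6:145076108-145076407, minus strand: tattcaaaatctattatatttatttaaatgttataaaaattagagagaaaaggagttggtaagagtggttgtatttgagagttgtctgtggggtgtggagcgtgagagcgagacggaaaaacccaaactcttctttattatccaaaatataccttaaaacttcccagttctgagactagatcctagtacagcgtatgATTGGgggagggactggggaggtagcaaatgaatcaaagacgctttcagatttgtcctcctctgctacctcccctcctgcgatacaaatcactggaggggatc
Slc38a2, chr15:96699679-96699978, minus strand: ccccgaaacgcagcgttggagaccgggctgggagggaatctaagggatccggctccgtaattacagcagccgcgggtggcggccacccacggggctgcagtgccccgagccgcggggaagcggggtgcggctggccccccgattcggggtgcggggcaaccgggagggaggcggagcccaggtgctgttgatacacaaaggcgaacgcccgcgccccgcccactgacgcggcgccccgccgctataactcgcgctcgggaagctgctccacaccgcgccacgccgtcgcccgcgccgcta
Glul, chr1:153899679-153899978, plus strand: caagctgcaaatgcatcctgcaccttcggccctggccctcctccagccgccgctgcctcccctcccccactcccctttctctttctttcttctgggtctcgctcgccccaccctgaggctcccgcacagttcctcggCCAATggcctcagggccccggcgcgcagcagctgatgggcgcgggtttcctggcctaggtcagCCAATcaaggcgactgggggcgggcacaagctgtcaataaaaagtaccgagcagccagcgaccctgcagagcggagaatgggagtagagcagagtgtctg
Got1, chr19:43524556-43524855, minus strand: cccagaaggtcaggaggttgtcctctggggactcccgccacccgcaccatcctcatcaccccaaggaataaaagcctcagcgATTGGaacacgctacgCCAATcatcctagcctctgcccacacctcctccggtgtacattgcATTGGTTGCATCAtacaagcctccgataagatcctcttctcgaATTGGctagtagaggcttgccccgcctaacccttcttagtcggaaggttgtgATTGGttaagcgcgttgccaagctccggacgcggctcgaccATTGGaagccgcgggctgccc
TGATGNAA occurred in 1 of the 8 windows and in 3.97% of all 32851 windows of the same length. In the window of Got1 it is read on the opposite strand and directly follows a CCAAT match, so that both stand in 1 run of capitals. CCAAT, the box bound by the factor NF-Y, was searched after the sequences had been seen. It occurred 6 times in Got1, 2 times in Glul and 1 time in the upstream window of Bcat1, and 0.0791% of all windows held at least 6, 11.7% at least 2 and 37.4% at least 1. The 2 genes that rose differed in base composition: the window of Slc38a2 was 73% G and C with 41 CpG, and that of the upstream Bcat1 start 41% with 6 CpG, against a median of 52.7% and 7 CpG over all windows. A further Bcat1 window, at an internal start, was 58.7% G and C and held neither motif. Genes that overlap members on the opposite strand and had a value were low. Teddm2 in Glul averaged 0.85 FPKM, and Gm26666 and Gm15687 in Bcat1 averaged 0.21 and 0.09 FPKM. Gm45760, on the opposite strand of Got2, was not among the gene rows, so its level is not known.

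Around the 9 genes, 75 others of glutamate and glutamine metabolism, transport and the amino acid response were read from the same fit. Of 69 that passed the filter of a mean of 0.5 FPKM, 10 rose and 1, Gpt, fell, beside 9.77% and 3.51% of all genes tested. With median-of-ratios scaling 6 rose and 2 fell, and without the library labelled KO3 18 rose and 1 fell, where 19.6% and 6.36% of all genes did. The lists are described by counts and medians, and several genes, Asns among them, stand in more than 1 list. Of the 24 alternatives, Gad1, Gad2 and Oat each passed in 19, Slc25a22 in 15, Slc25a11 in 14, Slc17a8 and Slc7a11 in 13 each, Asns in 12, Ogdh and Gpt in 11 each and Mdh2 in 8.

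Of 10 genes of a list around the GABA shunt and the route to proline, 3 rose and none fell (median log2 fold change 0.15). The shares over all genes tested were 9.77% and 3.51%. Without the library labelled KO3 4 rose, where 19.6% of all genes did. Aldh18a1, an enzyme of proline synthesis, was added (log2 fold change 0.31, limma adjusted p = 0.0168). Gad1 and Gad2, which turn glutamate into GABA, averaged 78.4 ± 13.9 and 38.8 ± 9.22 FPKM in WT and 116 ± 7.92 and 73.5 ± 17.0 FPKM in KO (± SD, 5 libraries per group; limma adjusted p = 0.0186 for both). The summed markers of GABAergic neurons, which include both genes, were above every WT library in every KO library, and their part in these values was not tested. Oat, ornithine aminotransferase, rose from 22.5 ± 1.28 to 27.3 ± 1.26 FPKM (± SD, 5 libraries per group; log2 fold change 0.27, limma adjusted p = 0.0186), with groups that did not overlap. Of 5 other aminotransferases tested Gpt fell and none rose. Of 10 glutamine amidotransferases, which take nitrogen from glutamine, Asns, asparagine synthetase, was the 1 that rose, from 30.7 ± 1.57 to 38.1 ± 4.69 FPKM (± SD, 5 libraries per group; log2 fold change 0.30, limma adjusted p = 0.0309). It did not pass with median-of-ratios scaling (log2 fold change 0.21, adjusted p = 0.0703).

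Of 10 genes of mitochondrial glutamate carriers, the malate-aspartate shuttle and oxoglutarate metabolism, 4 rose and none fell (median 0.19). Over all genes tested 9.77% rose and 3.51% fell. Without the library labelled KO3 5 rose, where 19.6% of all genes did. The fifth was Slc25a13, a mitochondrial aspartate and glutamate carrier (log2 fold change 0.32, limma adjusted p = 0.0241). Slc25a22, a mitochondrial glutamate carrier, went from 43.6 ± 4.79 to 59.7 ± 9.24 FPKM (± SD, 5 libraries per group; log2 fold change 0.44, limma adjusted p = 0.0277). The library labelled KO3 had 45.1 FPKM of it, inside the WT range. Slc25a11, the oxoglutarate carrier, Ogdh, a subunit of oxoglutarate dehydrogenase, and Mdh2, mitochondrial malate dehydrogenase, rose by log2 fold changes of 0.24, 0.24 and 0.25 (limma adjusted p = 0.0280, 0.0338 and 0.0418). The groups of these 3 genes did not overlap, nor did those of Mdh1, which did not pass (limma adjusted p = 0.155). KO lay wholly above WT in 5.7% of all genes tested. With median-of-ratios scaling Slc25a22 was the 1 of the 4 genes that rose that still passed (log2 fold change 0.35). Slc25a18, a glutamate carrier of astrocyte mitochondria, averaged 32.98 FPKM in WT against 31.1 FPKM in KO (limma adjusted p = 0.413).

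None of 6 other Slc38 genes tested passed in limma, and those with the lowest p were Slc38a10 (21.8 ± 2.02 and 26.9 ± 3.55 FPKM in WT and KO, SD, n = 5 each; adjusted p = 0.0585) and Slc38a11 (adjusted p = 0.163). Slc38a10 passed without the library labelled KO3 (log2 fold change 0.36, limma adjusted p = 0.0065). None of 7 other carriers of glutamine passed either, with Slc3a2 (adjusted p = 0.0636) and Slc7a8 (adjusted p = 0.115) the lowest, and all 7 had a positive log2 fold change (median 0.15), as did 10073 of all 14497 genes tested. With median-of-ratios scaling 5 of the 7 and 7377 of all genes were positive, and the median of the 7 was 0.06. Without the library labelled KO3 Slc3a2, the heavy chain shared by several amino acid exchangers, and Slc7a8 passed (limma adjusted p = 0.0151 and 0.0239). Of 3 vesicular glutamate transporters Slc17a8 rose, from 0.94 ± 0.19 to 1.45 ± 0.17 FPKM (± SD, 5 libraries per group; log2 fold change 0.34, limma adjusted p = 0.0304). Slc17a7, the main such transporter of cortical neurons, averaged 777 FPKM in WT against 875 FPKM in KO (adjusted p = 0.202). It passed without the library labelled KO3 (log2 fold change 0.23, limma adjusted p = 0.0454), where 2 of the 3 transporters rose. None of 5 genes of branched-chain keto acid breakdown, the steps after Bcat1, passed in limma, with Bckdk (adjusted p = 0.132) and Bckdha (adjusted p = 0.139) the lowest.

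Slc38a2 is a target of ATF4, the transcription factor of the response to amino acid shortage. Of 17 other genes of that response that were tested 2 rose and none fell, beside 9.77% and 3.51% of all genes tested. Of the 17, 15 had a positive log2 fold change (median 0.18, beside 0.08 for all genes tested, of which 10073 of 14497 were positive). With median-of-ratios scaling 11 of the 17 were positive (median 0.10). Without the library labelled KO3 5 rose, where 19.6% of all genes did. They were Slc7a11, Asns, Slc3a2, Sesn2, a stress-induced sestrin (log2 fold change 0.44, limma adjusted p = 0.0024), and Slc7a1, a carrier of cationic amino acids (0.33, adjusted p = 0.0254). Slc7a11, the cystine and glutamate exchanger, went from 8.91 ± 0.95 to 12.99 ± 2.50 FPKM (± SD, 5 libraries per group; log2 fold change 0.48, limma adjusted p = 0.0283), and was 8.94 FPKM in the library labelled KO3. Asns was the other. Atf4 itself averaged 22.7 FPKM in WT against 23.8 FPKM in KO (adjusted p = 0.545). With median-of-ratios scaling Slc7a11 passed (log2 fold change 0.40) and the other members of the list did not.

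**Figure D4:**
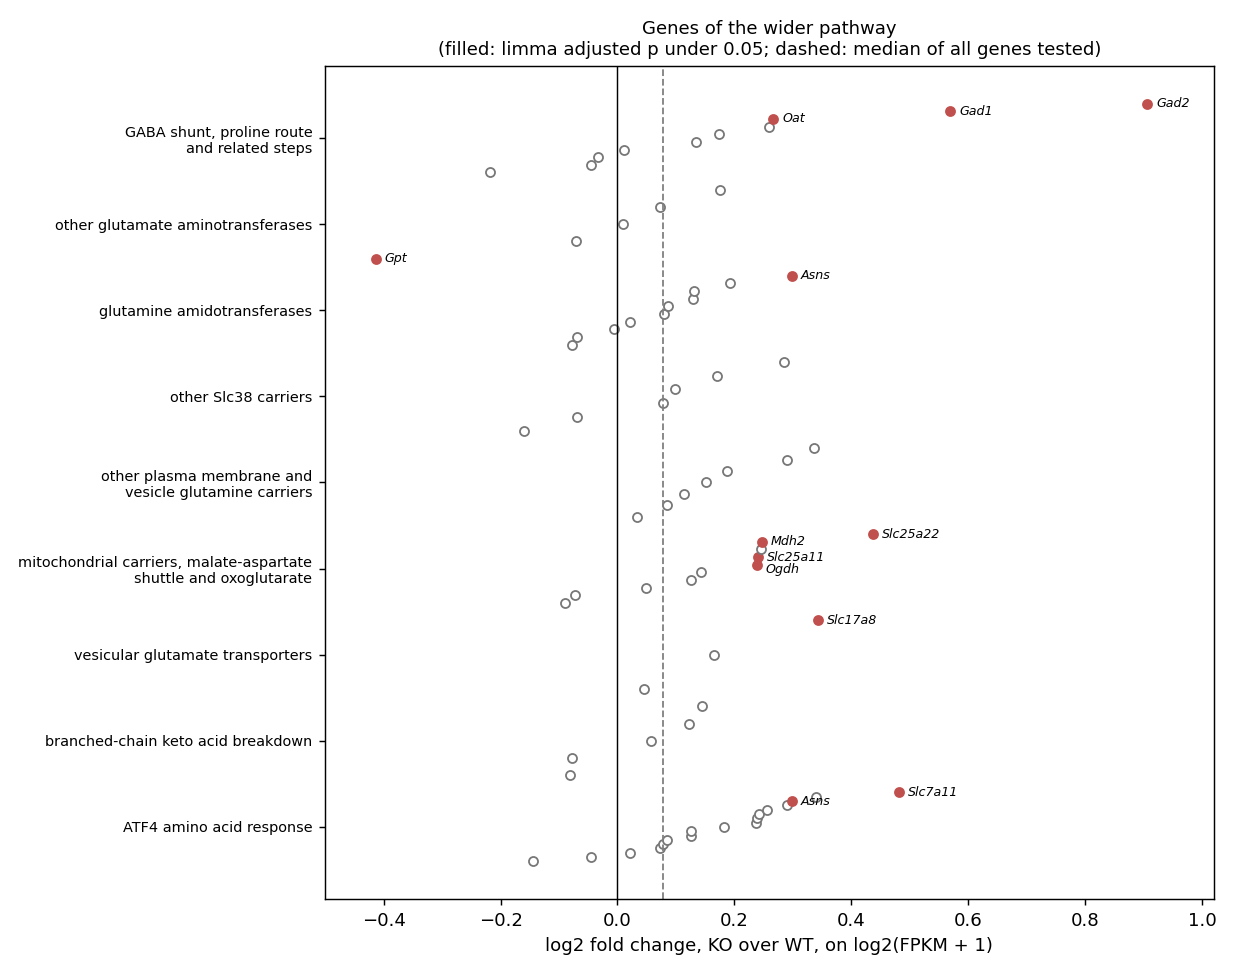
Log2 fold change of KO over WT (x axis, on log2(FPKM + 1)) of each tested gene of the wider pathway, by list (y axis). Each point is 1 gene, filled and named where it passed limma's test, and the dashed line is the median of all genes tested (0.08). Gad2 lies furthest to the right at 0.91, and Gpt is the only filled point below 0.

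The genes whose pattern over the 10 libraries was most like that of a member were ranked by Pearson's r of log2(FPKM + 1), among 8102 genes averaging 5 FPKM or more. For Glul these were Foxo4 (r = 0.95), Nrsn1 (r = 0.95) and Ccni (r = 0.94). For Bcat1 they were Lypla2 (r = 0.95), Jup (r = 0.95) and M6pr (r = 0.94), and for Slc38a2 Rabggtb (r = 0.96), Rab5c (r = 0.94) and Sdhd (r = 0.94). Values this high are the top of a ranking of 8102 genes over few libraries that share genotype and depth, so they are a description. Nrsn1, a neuronal membrane protein, measured 246 ± 48.7 FPKM in WT against 184 ± 31.1 FPKM in KO (± SD, 5 libraries per group), a difference that did not pass (limma adjusted p = 0.0596). Jup, which encodes plakoglobin, rose from 16.7 ± 2.26 to 24.6 ± 3.05 FPKM (± SD, 5 libraries per group; limma adjusted p = 0.0186).

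**Figure D5:**
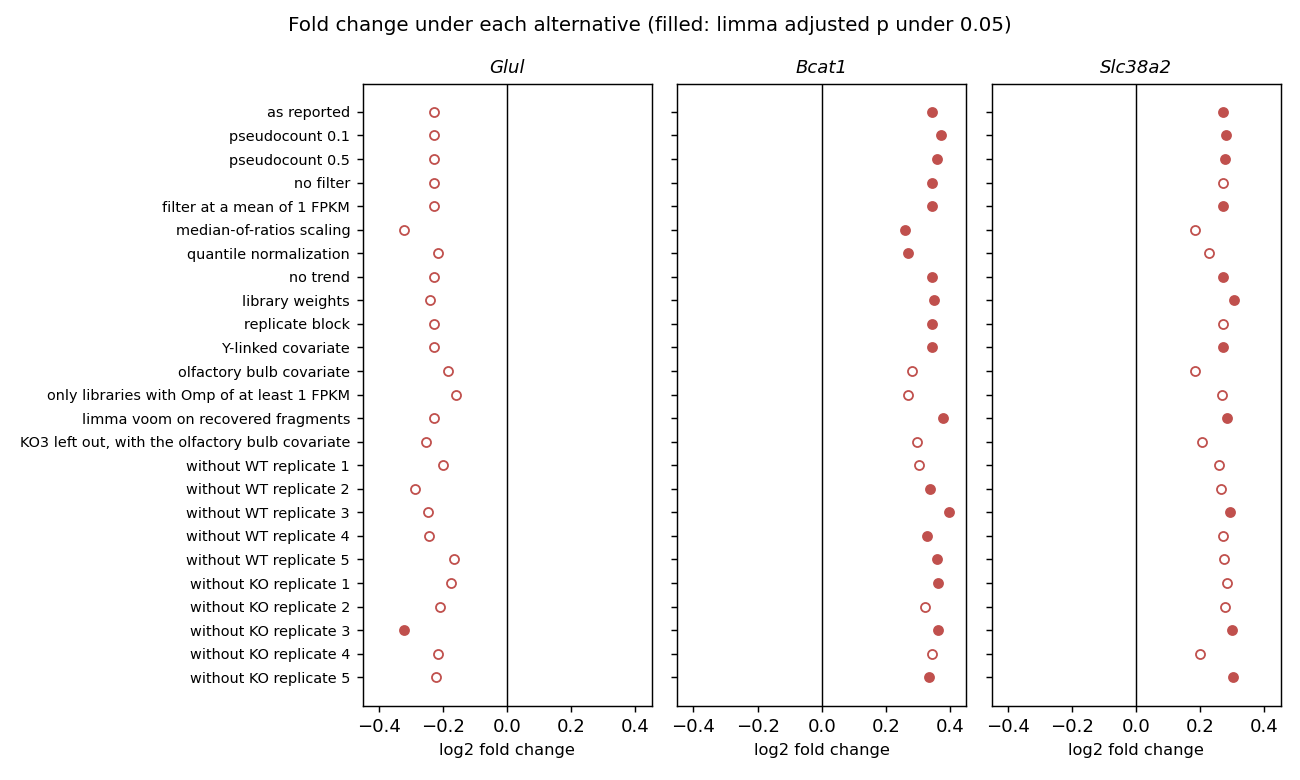
Log2 fold change (x axis) of Glul, Bcat1 and Slc38a2 in the reported fit and under each of 24 alternatives (y axis), filled where limma's adjusted p was under 0.05. All values of Glul lie below 0 and all values of Bcat1 and Slc38a2 above 0. Bcat1 is filled in 18 of the alternatives, Slc38a2 in 10 and Glul in 1.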

How the data were processed

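Libraries were prepared with NEBNext Ultra from total RNA of motor cortex, per the labels' protocols. The authors deposited FPKM per gene and library. The build is mm10, per the submitters' processing notes, and aligner, counter, annotation and strandedness were not given in the sources used here. Multiplying FPKM by gene length and dividing by the library's own step returned whole fragments (100% of values above 0, within 0.02). Of the 45 pairs of libraries none was alike enough to be a repeat deposit (lowest chi-square per gene 7.22).

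Genotype was fitted with limma 3.58.1 (R 4.3.3; lmFit, eBayes with trend) to log2(FPKM + 1) of genes averaging 0.5 FPKM or more, which understates changes of low genes. Tests were two-sided, with Benjamini-Hochberg adjustment over all genes tested and a threshold of 0.05. Single levels were compared by exact permutation, unadjusted. The fit was tested on simulated data.

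The 9 genes and all lists were chosen with earlier results of these data known. The text names the 9 genes, 5 reference genes (Tmem259, Gfap, Slc1a2, Slc1a3, Omp, where used), up to 5 called genes per list by lowest p (the lowest 2 where none passed), and the 3 genes most like Glul and each called gene of the 9. Aldh1l1, Bcat2, Slc25a18, Slc17a7, Atf4, Aldh18a1, Slc25a13, Sesn2, Slc7a1 and Mdh1 were named after their values were seen. So were the markers Pvalb, Aqp4 and Mlc1, overlapping genes and those of the closing observations. A gene of the lists is not reported here by name. Alternatives changed pseudocount, filter, scaling, variance model, weights, block, covariates and libraries, or used limma voom on the recovered fragments.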

Additional observations from a re-analysis of the deposited data

Results flagged for a closer look

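In 3 of 62 groups of 5 libraries examined, 1 library lay apart from the others of its group, where chance flags about 1 group in 20. The library labelled KO3 was the highest KO value of Glul at 817 FPKM, with the other 4 KO libraries between 547 and 623 FPKM. KO4 was the highest KO value of Slc38a2 at 36.9 FPKM, with the others between 27.4 and 29.6 FPKM. WT5 was the highest WT value of Bckdha, a subunit of the branched-chain keto acid dehydrogenase, at 16.7 FPKM.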

How the results depend on the processing

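Pseudocounts, a filter at a mean of 1 FPKM, no trend, the Y-linked covariate and limma voom on recovered fragments left the direction and the call of all 9 genes as reported. With no filter the counts of called genes were 465 over all genes, 1 of the 9 and 3 of the wider pathway. Median-of-ratios scaling and quantile normalization each left 1 of the 9, and quantile normalization split the calls over all genes into 617 higher and 790 lower. Library weights gave 3557 genes and 21 of the pathway, and an adjusted p under 0.1 gave 3546 and 18. With the olfactory bulb covariate limma called 0 genes, 0 of the 9 and 0 of the pathway, although 3060, 2 and 20 had an unadjusted p under 0.05. In the libraries with at least 1 FPKM of Omp the counts were 1, 0 and 0 (unadjusted 1911, 2 and 10). With the olfactory bulb covariate and the library labelled KO3 left out, 0 of the 9 passed (3 unadjusted), beside 11 of the pathway and 1703 genes in all. Leaving out each library in turn gave 2 to 3769 genes, 0 to 3 of the 9 and 0 to 19 of the pathway. The lowest counts came without WT1, KO2 or KO4 (2, 0 and 0 in each; 3943, 4101 and 3727 genes unadjusted), and the highest without the library labelled KO3. The pathway count was 3 without WT5, 3 without KO1 and 5 without KO5. The cause was not tested.

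Same-numbered libraries deviated together in some pairs only (correlations 0.14, -0.04, -0.06, 0.14 and 0.11), so not every pair passed 0.1 and the numbers were not taken as a pairing; 2 of the 5 WT libraries correlated best with the KO library of their own number. A replicate block gave 1271 genes, 1 of the 9 (Bcat1; Slc38a2 had adjusted p = 0.0573) and 6 of the pathway.

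Signs turned for genes with small differences. Got1 had log2 fold changes of -0.012 with the olfactory bulb covariate and -0.013 with that covariate and no KO3 library, and Slc38a1 had -0.051 and -0.043. Gpt2 had 0.130 and 0.138 in those fits, 0.011 with library weights, 0.026 in the libraries with Omp and 0.044 without WT5, where its difference of means was 0.637 FPKM; over the left-out libraries these ranged from -0.078 to 0.044 and from -1.23 to 0.637 FPKM. The 9 genes rest on at least 1469 fragments per library. Slc38a4, Slc38a8 and Trib3 rest on few fragments.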

Other observations

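Some genes of the lists were below the filter and were looked at after the other results were known. Slc38a8, a glutamine carrier of some neurons, measured 0.14, 0.08, 0.13, 0.14 and 0 FPKM in WT1 to WT5 and 0.51, 0.27, 0.23, 0.52 and 0.71 FPKM in KO1 to KO5. All KO values were above all WT values (exact two-sided permutation p = 0.00794, the smallest possible, unadjusted), on at most 43 fragments per library. Trib3, a pseudokinase induced by ATF4, measured between 0.02 and 0.19 FPKM in WT and between 0.21 and 0.73 FPKM in KO, also without overlap, on 1 to 36 fragments; the library labelled KO3 was the lowest of the KO group. Slc38a4 measured between 0.14 and 0.24 FPKM in WT and between 0.22 and 0.72 FPKM in KO, with KO2 within the WT range. KO lay wholly above WT in 5.7% of the genes tested, and that share was not taken over genes below the filter. Another of the 6 untested genes also lay wholly higher in KO, on at most 4 fragments per library. The values of Slc38a8, Trib3 and Slc38a4 were picked from 6 untested genes, so their p-values are not corrected for that choice.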
